A study of Mus musculus with 7 samples.

Results

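The collagen gene family was followed in whole mouse embryos with and without the SLMAP3 isoform. Its members were the protein-coding genes whose symbol has the form of a collagen alpha chain, Col followed by a type number, the letter a and a chain number. There were 43 such genes among the 25461 genes of the expression table. They comprised 11 fibrillar collagens, 6 basement membrane collagens, 9 FACIT collagens (fibril-associated collagens with interrupted triple helices) and 17 others. RNA was sequenced from 3 SLMAP3 KO and 4 WT embryos of B6C3F1 mice at E11.5, and the tail of each embryo had been taken for genotyping. In the KO line, exon 3 of Slmap was flanked by LoxP sites and deleted with a CMV-driven cre, which was then bred out. The deletion is global and was described to remove the SLMAP3 isoform while leaving SLMAP1 and SLMAP2, so that KO embryos retain part of the gene's products. Heterozygous matings gave both the KO and the WT embryos, and each sample was a single embryo. Throughout, values are listed for the KO embryos KOAC8-6, KOAC10-5 and KOAC10-8, followed by the WT embryos KOAC8-1, KOAC10-7, KOAC9-1 and KOAC10-2, in that order.

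Collagens are secreted proteins in which alpha chains wind into a triple helix, built from repeats of glycine and a pair of other residues. Fibrillar collagens assemble into the banded fibrils of dermis, tendon, cartilage and bone, and FACIT collagens sit on the surface of these fibrils. Basement membrane collagen (type IV) instead forms a meshwork under epithelia and around blood vessels. At mid-gestation the fibrillar chains come mainly from mesenchyme, the sclerotome and early cartilage condensations, whereas endothelial and epithelial cells make type IV collagen.

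Levels are FPKM (fragments per kilobase, scaled to the depth of the library), which are per length and so can be set side by side between genes. Slmap itself was at 19.6, 16.0 and 16.6 FPKM in KO and 31.2, 23.9, 29.1 and 22.8 FPKM in WT embryos. The genotypes did not overlap, and transcripts that lack exon 3 would still be counted. Relative depth ran from 0.81 to 1.22 of the average. In 3 embryos (KOAC10-5, KOAC10-7 and KOAC10-2) the summed fetal liver and yolk sac markers were between 25.3 and 42.6 FPKM, against 413 to 767 FPKM in the other 4. The embryos KOAC10-8 and KOAC9-1, 1 of each genotype, had Xist under 1 FPKM, whereas the others were at 158 FPKM or more. Nothing in the labels says which embryos share a litter.

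Most collagen genes of this age were well above the limit of testing. The mean over the 7 embryos was at least 100 FPKM in 3 genes, 10 to under 100 FPKM in 21 and 1 to under 10 FPKM in 11. The 8 genes under 1 FPKM were Col6a6, Col5a3, Col19a1, Col6a4, Col28a1, Col6a5, Col4a4 and Col4a3, with means from 0.624 down to 0.0503 FPKM. These 8 did not pass the filter of a mean of 1 FPKM, which left 35 members among the 16095 genes tested.

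**Figure D1:**
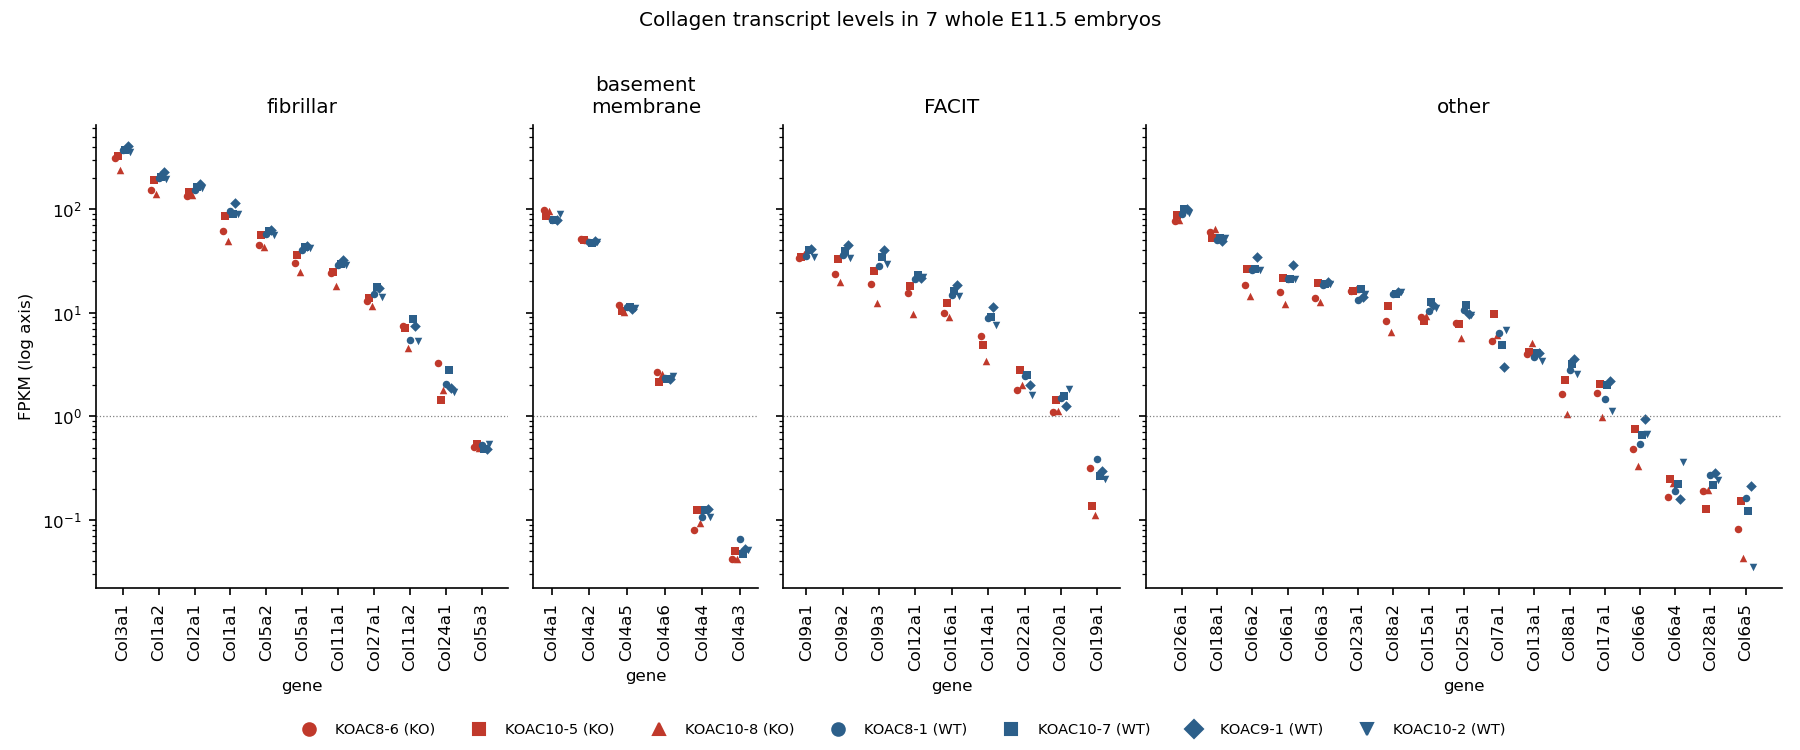
FPKM of the 43 collagen genes (log axis) in each embryo, grouped by class and ordered by mean level, with KO embryos in red and WT embryos in blue and a dotted line at 1 FPKM. Col3a1 was the highest gene and 8 genes had means under the line.

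Collagen transcripts made up a smaller sum in the KO embryos. The 43 genes together reached 1295, 1443 and 1158 FPKM in KO and 1524, 1590.3, 1704 and 1519.6 FPKM in WT embryos. The groups did not overlap, and the KO mean was 82.0% of the WT mean. Fibrillar chains gave 62.9% of the mean collagen FPKM of the WT embryos. They were lower in every KO embryo, with sums of 779.9, 892 and 670.4 FPKM in KO and 946 to 1084 FPKM in WT embryos. FACIT chains summed to 94.7 to 132 FPKM in KO and 146 to 182 FPKM in WT embryos, again without overlap, at 69.9% of the WT mean. The sum of the basement membrane chains went the other way, at 149 to 164 FPKM in KO and 139.7 to 150.4 FPKM in WT embryos, at 110.3% of the WT mean with overlap. Single chains differed, with KO means of Col4a1, Col4a2 and Col4a6 at 115%, 105.6% and 104.8% of the WT mean. Those of Col4a5, Col4a4 and Col4a3 were at 96.7%, 84.9% and 82.5%. The sum of the 17 other collagens overlapped between genotypes as well, at 87.4% of the WT mean. In these bulk samples, fewer cells of a type and less RNA per cell cannot be told apart.

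No collagen gene passed the test across all genes (limma on log2(FPKM + 1), Benjamini-Hochberg adjusted p under 0.05). The smallest adjusted p among them was 0.274, and 0.0373% of all genes tested (6 genes) passed. At an unadjusted p under 0.05, 21 of the 35 tested collagens were lower in KO embryos and 2 were higher. Among all genes tested, 6.19% were lower and 5.27% were higher by that rule. The 3 KO embryos all lay under the lowest WT embryo in 17 of the 35, against 5.98% of all genes. They all lay over the highest WT embryo in 1, against 5.61% of all genes. The log2 fold change was negative in 27 and positive in 8, with a median of -0.31, beside a median of 0.01 over all genes tested. The counts of lower genes in the family were thus above those of the background, although no single gene passed. Many collagen genes are made by the same cells, so the 35 are not independent of each other.

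**Figure D2:**
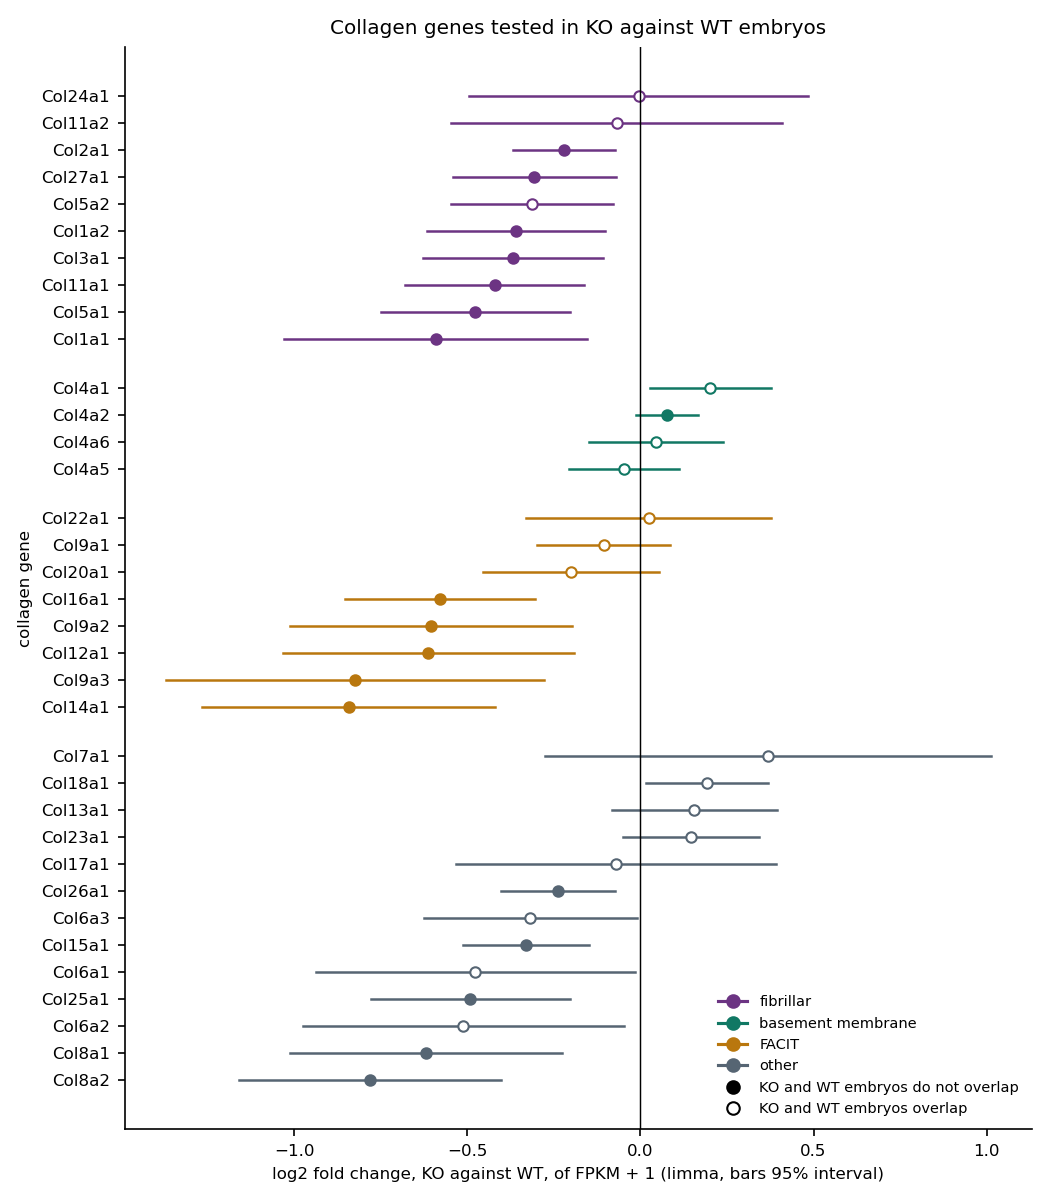
log2 fold change of KO against WT, of FPKM + 1, for the 35 collagen genes tested, with 95% intervals from limma; filled points mark genes whose KO and WT embryos did not overlap. Fibrillar and FACIT genes lay mainly to the left of 0, from -0.84 for Col14a1, and the 4 type IV genes lay between -0.05 and 0.20.

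Most fibrillar collagens had lower means in KO embryos, although none passed the adjusted threshold. Of the 10 tested, 8 had an unadjusted p under 0.05, 7 did not overlap, and all had a negative log2 fold change, with a median of -0.34. Col3a1, the chain of type III collagen of loose connective tissue and vessel walls, was the most abundant collagen transcript. It was at 308, 326 and 239.8 FPKM in KO and 369.7, 368, 403 and 353 FPKM in WT embryos. The KO embryos all lay under the lowest WT embryo, with KOAC10-8 well under the other two. Its log2 fold change was -0.37 ± 0.11 (SE, adjusted p = 0.345 by limma).

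Type I collagen, the main protein of skin, tendon and bone, is made of chains of Col1a1 and Col1a2. Col1a2 was at 154, 192 and 141 FPKM in KO and 198, 206, 227 and 197 FPKM in WT embryos. Col1a1 was at 61.6, 86.5 and 49.0 FPKM in KO and 95.9, 90.4, 114 and 89.1 FPKM in WT embryos. Neither gene overlapped between genotypes, although KOAC10-5 came within a few FPKM of the lowest WT embryo for both. The KO mean of Col1a1 was 67.5% of the WT mean (log2 fold change -0.59 ± 0.19, SE, adjusted p = 0.353 by limma), and that of Col1a2 was 78.4%.

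Col2a1 encodes the chain of cartilage and notochord fibrils. It was at 133, 147 and 136 FPKM in KO and 152, 164, 174 and 159 FPKM in WT embryos. The groups were apart but close, and the KO mean was 85.6% of the WT mean, with a log2 fold change of -0.22 ± 0.06 (SE). The exact permutation test gave p = 0.0571 for Col2a1, 1 step above 0.0286, which is the smallest that 35 divisions of the embryos allow.

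The type V and type XI chains join the cores of type I and type II fibrils, where they set fibril diameter. Col5a1 was at 30.1, 36.3 and 24.9 FPKM in KO and 40.1, 43.0, 44.3 and 41.7 FPKM in WT embryos. Col11a1 was at 24.1, 24.5 and 18.0 FPKM in KO and 28.5, 29.6, 32.1 and 29.2 FPKM in WT embryos. Both were without overlap, with log2 fold changes of -0.48 and -0.42. Col5a2 differed by -0.31, but its KO embryo KOAC10-5 (56.3 FPKM) lay just above the lowest WT embryo (55.6 FPKM). Col27a1, a fibrillar chain of cartilage, was at 13.1, 13.8 and 11.5 FPKM in KO and 15.2, 17.8, 17.3 and 14.0 FPKM in WT embryos. These did not overlap, though KOAC10-5 and KOAC10-2 nearly met, and the exact permutation p was 0.0571. The remaining fibrillar genes overlapped between genotypes, with log2 fold changes of -0.07 (95% interval -0.55 to 0.41) for Col11a2 and -0.01 (-0.49 to 0.48) for Col24a1. Col5a3, at a mean of 0.511 FPKM, was not tested.

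**Figure D3:**
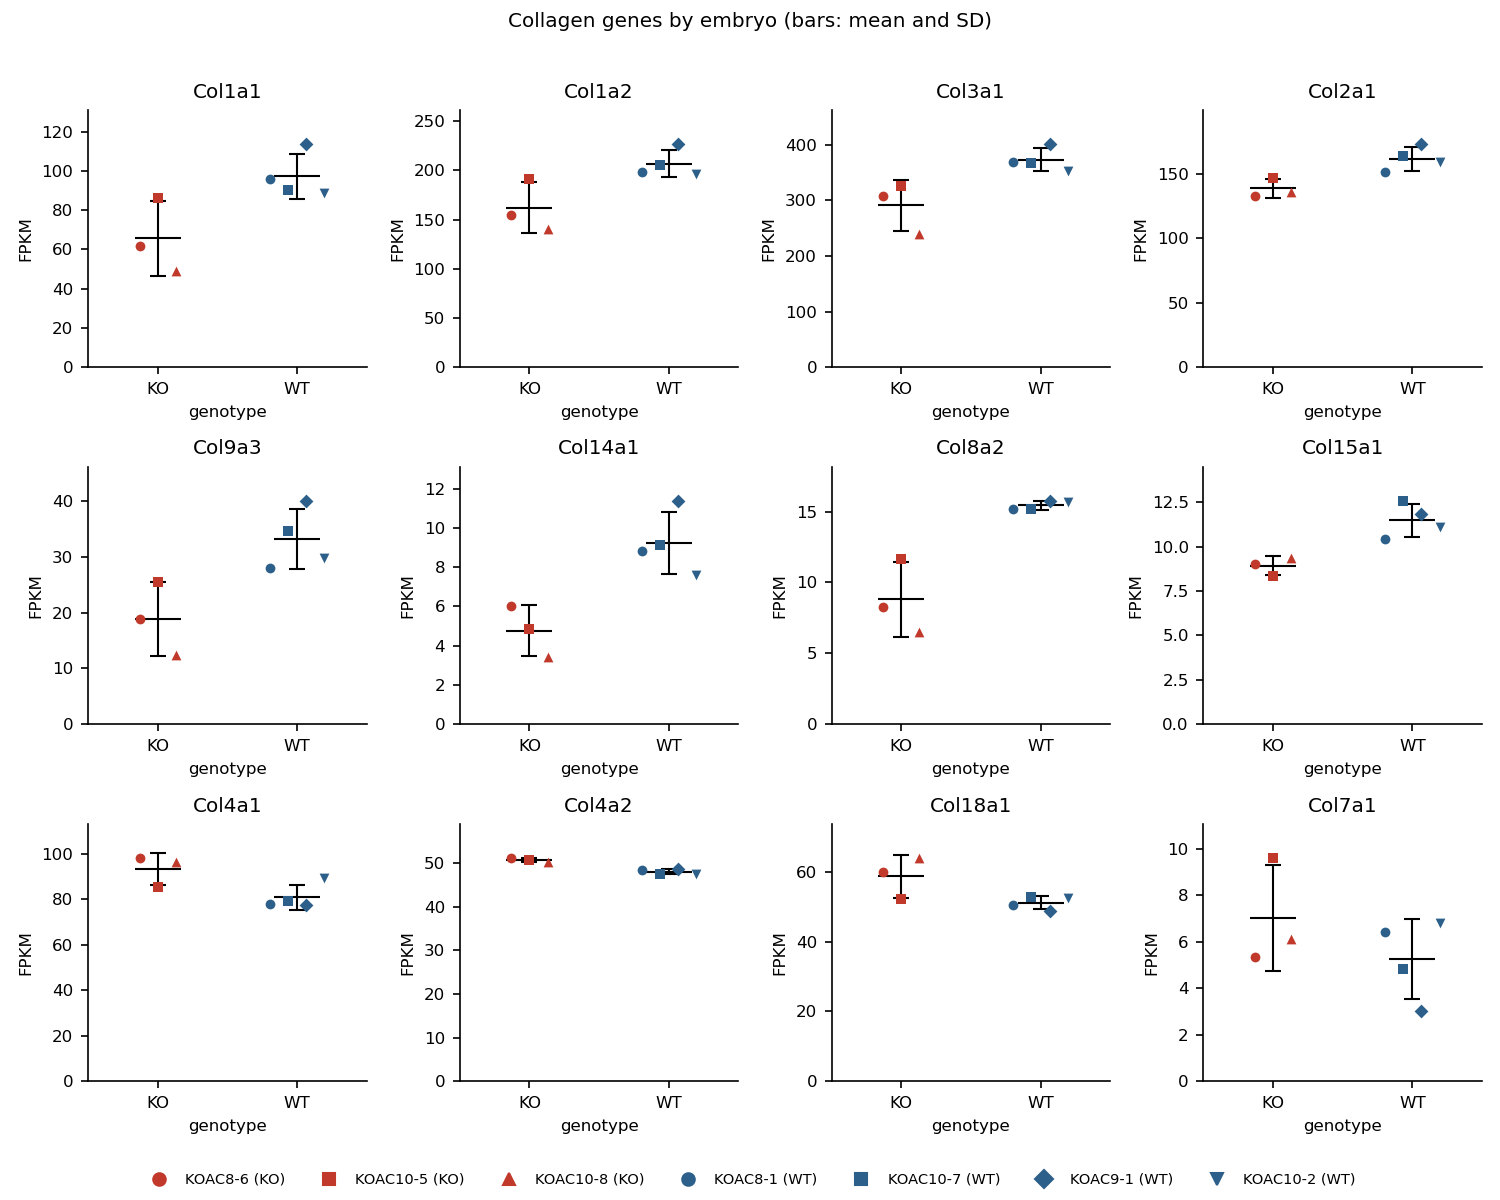
FPKM of 12 collagen genes in each KO and WT embryo, with the mean and SD of each genotype; each axis starts at 0. The KO embryos lay below all WT embryos for the genes from Col1a1 to Col15a1, above them for Col4a2, and overlapped them for Col4a1, Col18a1 and Col7a1.

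FACIT collagens had the most negative median of the 4 classes. Of the 8 tested, 5 had an unadjusted p under 0.05, all lower in KO and all without overlap, and the median log2 fold change was -0.59. Col14a1, a FACIT of tendon and skin fibrils, was at 6.00, 4.84 and 3.42 FPKM in KO and 8.81, 9.12, 11.4 and 7.60 FPKM in WT embryos. The highest KO embryo was under the lowest WT embryo, and the KO mean was 51.5% of the WT mean. Its log2 fold change of -0.84 ± 0.18 (SE, adjusted p = 0.274 by limma) was the most negative of the family. Col12a1, which is found along type I fibrils, was at 15.4, 18.1 and 9.79 FPKM in KO and 21.4, 23.0, 21.6 and 21.9 FPKM in WT embryos. The WT embryos were tight (SD 0.743, n = 4), while the KO embryos spread widely (SD 4.25, n = 3). Without KOAC10-8 its log2 fold change of -0.61 went to -0.38. Col16a1, a FACIT of skin and other connective tissue, was at 9.88, 12.3 and 9.17 FPKM in KO and 14.9, 16.2, 18.4 and 14.6 FPKM in WT embryos. It was lower in every KO embryo, with the smallest adjusted p of the family (log2 fold change -0.58 ± 0.12, SE, adjusted p = 0.274 by limma).

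The 3 chains of type IX collagen, which decorates type II fibrils in cartilage, were not alike. Col9a2 was at 23.8, 32.6 and 19.7 FPKM in KO and 36.2, 39.4, 45.2 and 33.4 FPKM in WT embryos. Col9a3 was at 18.8, 25.5 and 12.3 FPKM in KO and 28.0, 34.7, 40.1 and 29.8 FPKM in WT embryos. Both were lower in all KO embryos, at 65.8% and 56.9% of the WT mean. Col9a1 was at 33.4, 34.6 and 37.1 FPKM in KO and 35.1, 40.5, 41.4 and 34.6 FPKM in WT embryos. Its groups overlapped, and KOAC10-8, the lowest embryo for Col9a2 and Col9a3, was the highest KO embryo for Col9a1 (log2 fold change -0.11, 95% interval -0.30 to 0.08). Col20a1 and Col22a1 were near 1 to 2 FPKM and overlapped, with log2 fold changes of -0.20 and 0.02. Col19a1 was not tested, with a mean of 0.252 FPKM.

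The basement membrane collagens did not share the lower levels. Type IV chains form trimers in fixed combinations, of which that of Col4a1 and Col4a2 is the widespread embryonic form. Col4a1 was at 98.3, 85.1 and 96.2 FPKM in KO and 77.8, 79.0, 77.6 and 89.1 FPKM in WT embryos. Its KO mean was 115% of the WT mean with an unadjusted p of 0.0284 (log2 fold change 0.20 ± 0.07, SE, adjusted p = 0.391 by limma), but KOAC10-2 lay above KOAC10-5. Neither Col4a1 nor Col18a1, the 2 collagens higher at an unadjusted p under 0.05, kept that p with the KOAC series as a block or without the embryos of low Xist. Col4a2 was at 51.3, 50.8 and 50.2 FPKM in KO and 48.6, 47.5, 48.7 and 47.6 FPKM in WT embryos. All KO embryos were above all WT embryos, within a narrow range, and the difference was 0.08 on the log2 scale (exact permutation p = 0.0286, unadjusted p = 0.0833 and adjusted p = 0.488 by limma). Col4a5, the partner of Col4a6 and of the kidney type IV trimer, was at 11.9, 10.3 and 10.1 FPKM in KO and 11.3, 11.3, 11.0 and 11.1 FPKM in WT embryos. These overlapped, as did the values of Col4a6 (2.13 to 2.68 FPKM in KO, 2.28 to 2.46 FPKM in WT). Col4a3 and Col4a4, of the kidney and lung trimer, had means of 0.0503 and 0.109 FPKM and were not tested.

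Each pair of type IV genes lies head to head in the annotation. Col4a1 (minus strand) and Col4a2 (plus strand) start on chromosome 8 of GRCm38 so close together that their transcripts overlap by 22 bases. Col4a4 and Col4a3 are separated by 71 bases on chromosome 1, and Col4a6 and Col4a5 by 1308 bases on the X chromosome. The bases from the start of Col4a2 to that of Col4a1 are shown, since both transcripts begin in it and run through it in opposite directions. They are taken from RefSeq (GRCm38.p6, chr8:11312805-11312826, plus strand), with the letters GGGCGG in capitals.
Col4a1-Col4a2: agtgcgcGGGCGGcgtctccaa
The kit did not mark the strand, so that reads from these 22 bases cannot be told apart.

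Other collagens were mixed, with 8 of 13 tested lower and 1 higher at an unadjusted p under 0.05, 5 without overlap (all lower) and a median log2 fold change of -0.32. Col26a1, a secreted collagen with short helices, was at 77.3, 87.95 and 77.5 FPKM in KO and 89.0, 100.1, 101 and 92.6 FPKM in WT embryos. The KO embryos were below the WT embryos, with KOAC10-5 within about 1 FPKM of KOAC8-1. Type VIII collagen forms the hexagonal lattice of the membrane behind the cornea and of vessel walls. Its chain Col8a2 was at 8.24, 11.7 and 6.50 FPKM in KO and 15.2, 15.2, 15.8 and 15.7 FPKM in WT embryos. The WT embryos differed by less than 1 FPKM and all KO embryos were well below them (log2 fold change -0.78 ± 0.16, SE, adjusted p = 0.274 by limma). The other chain, Col8a1, was at 1.66, 2.26 and 1.06 FPKM in KO and 2.79, 3.21, 3.57 and 2.57 FPKM in WT embryos. It was lower in every KO embryo as well, at 54.7% of the WT mean.

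Col15a1 and Col18a1 are the closely related multiplexins of basement membrane zones, and their values lay on opposite sides. Col15a1 was at 9.04, 8.37 and 9.38 FPKM in KO and 10.4, 12.6, 11.8 and 11.1 FPKM in WT embryos. Col18a1, the source of endostatin, was at 59.9, 52.2 and 64.1 FPKM in KO and 50.6, 52.7, 48.7 and 52.5 FPKM in WT embryos. Col15a1 was lower in every KO embryo (log2 fold change -0.33 ± 0.08, SE). Col18a1 was higher in KOAC8-6 and KOAC10-8 than in any WT embryo but not in KOAC10-5, with a log2 fold change of 0.19 ± 0.07 (SE) and an unadjusted p of 0.0367 (adjusted p = 0.408 by limma). The difference between these genes' fold changes was not tested.

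The type VI chains, which form beaded microfibrils in most connective tissue, were lower on average but overlapped. Col6a2 was at 18.5, 26.4 and 14.5 FPKM in KO and 25.6, 26.6, 34.4 and 25.8 FPKM in WT embryos. KOAC10-5 sat among the WT embryos for Col6a1, Col6a2 and Col6a3 alike, and the log2 fold changes were -0.48, -0.51 and -0.32 in that order. Col6a4, Col6a5 and Col6a6 were not tested, with means of 0.227, 0.116 and 0.624 FPKM. Among the transmembrane collagens, Col25a1 was at 7.91, 7.85 and 5.72 FPKM in KO and 10.6, 11.7, 9.76 and 9.50 FPKM in WT embryos. It was lower in every KO embryo, whereas Col13a1, Col17a1 and Col23a1 overlapped, with log2 fold changes of 0.16, -0.07 and 0.15. Col7a1, the anchoring fibril collagen of skin, had the most positive log2 fold change, 0.37 (95% interval -0.28 to 1.01). It was at 5.34, 9.63 and 6.12 FPKM in KO and 6.43, 4.84, 3.00 and 6.79 FPKM in WT embryos. Its KO and WT embryos overlapped widely, and KOAC10-5 alone was above the WT range. Col28a1, with a mean of 0.219 FPKM, was not tested, and its KO embryos (0.128 to 0.196 FPKM) lay below its WT embryos (0.220 to 0.286 FPKM).

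For the tested members without overlap, the exact permutation test gave the smallest p the design allows, 0.0286, in all but Col2a1 and Col27a1. That p takes no account of the number of genes looked at. It also adds nothing to the lack of overlap by which these genes were picked, since embryos fully apart give a p at or near the smallest possible.

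Partner chains of a collagen type were compared as ratios of FPKM in each embryo, without a test. The chains Col6a1 and Col6a2 varied 2.39-fold and 2.37-fold between the lowest and the highest embryo, whereas their ratio varied only 1.09-fold, from 0.789 to 0.856. They lie 85.2 kb apart on chromosome 10 in the same direction. Col18a1, 326.0 kb beyond Col6a1 on the same strand, had the opposite sign. The ratio of Col1a1 to Col1a2 was 0.399, 0.451 and 0.348 in KO and 0.484, 0.440, 0.502 and 0.453 in WT embryos, so that the lowest ratios were in KO embryos but the groups overlapped. Ratios that did not overlap were those of Col5a1 to Col5a2, lower in all KO embryos (0.579 to 0.676 against 0.696 to 0.750), and of Col9a1 to Col9a2, higher in all KO embryos. Col9a1 to Col9a2 was at 1.40, 1.06 and 1.89 in KO and 0.970, 1.03, 0.916 and 1.03 in WT embryos. This pair was near parity in WT embryos and apart in KOAC8-6 and KOAC10-8. The third chain gave a ratio of Col9a3 to Col9a2 of 0.627 to 0.789 in KO and 0.774 to 0.891 in WT embryos, with overlap.

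**Figure D4:**
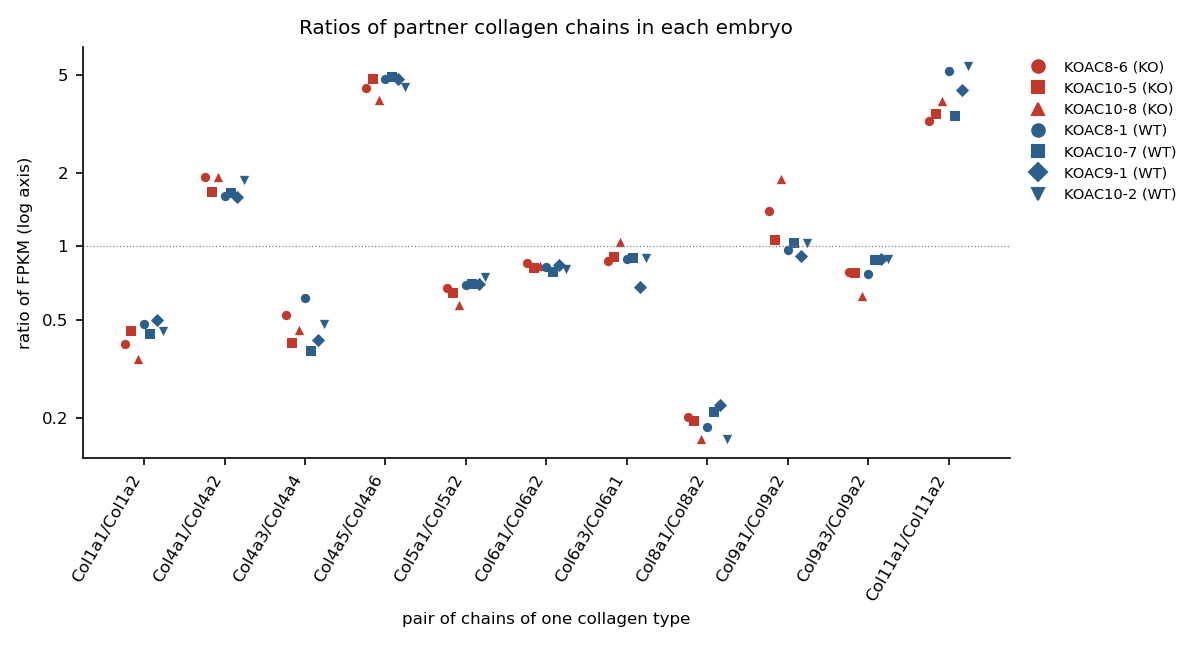
Ratio of FPKM (log axis) between chains of the same collagen type in each embryo, KO in red and WT in blue. The ratio of Col6a1 to Col6a2 stayed between 0.789 and 0.856 in all 7 embryos, while that of Col9a1 to Col9a2 was 1.06 to 1.89 in KO and 0.916 to 1.03 in WT embryos.

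Embryos within a genotype differed along the same order for many collagens. KOAC10-8 was the lowest of the 7 embryos in 21 of the 35 tested genes, and KOAC9-1 was the highest in 19. Among the 17 genes without overlap in the lower direction, KOAC10-8 was lowest in 14 and KOAC9-1 was highest in 13, while KOAC10-5 was the highest KO embryo in 14. Leaving out KOAC10-8 moved the log2 fold change nearest to 0 in 18 of the 21 genes with an unadjusted p under 0.05 in the lower direction. That of Col3a1 went from -0.37 to -0.23. All 21 remained negative with each embryo left out in turn. KOAC10-8 and KOAC9-1 are also the embryos with Xist under 1 FPKM. Without both, all 21 remained negative and 12 kept an unadjusted p under 0.05. Within the KOAC10 embryos (2 KO and 2 WT), all 21 had a lower mean in KO, with a median difference of -0.46 on the log2 scale. Of these embryos, KOAC10-8 alone had high fetal liver and yolk sac markers, with a sum of 497 FPKM. The KO embryo KOAC10-5 was at 25.3 FPKM and the WT embryos KOAC10-7 and KOAC10-2 at 36.8 and 42.6 FPKM. The 21 had been picked by a fit that holds these same embryos. Their direction in parts of the data is therefore not separate support. KOAC8 holds 1 embryo of each genotype and KOAC9 a single WT embryo, so neither gave a spread of its own.

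Markers of the tissues that make collagen were read beside these values. The summed mesenchyme markers (6 genes, among them Pdgfra, Prrx1 and Twist1) ran from 223 to 235 FPKM in KO and 233 to 248 FPKM in WT embryos, with overlap and a median log2 fold change of -0.03. Of these, Pdgfra and Twist2 were lower at an unadjusted p under 0.05, and only Twist2 was without overlap. The list had 3 negative and 3 positive log2 fold changes. The positive ones were Pdgfrb (0.01), Twist1 (0.05) and Thy1 (0.04). Cartilage markers (7 genes in the table, 5 tested) overlapped at 53.7 to 60.5 FPKM and 51.7 to 68.4 FPKM. Sox9, the regulator of the cartilage lineage, had a log2 fold change of 0.07, and the median of the 5 tested was -0.04, from -0.65 for the matrix gene Acan to 0.33 for the matrix gene Hapln1. Bone markers were low and overlapped, with sums of 11.6 to 16.9 FPKM in KO and up to 15.5 FPKM in WT embryos, at 128% of the WT mean. Most of that came from Sp7, a regulator of osteoblasts, at 7.33, 1.49 and 7.50 FPKM in KO and 0.982, 1.08, 1.23 and 5.63 FPKM in WT embryos. Skeletal muscle markers (8 genes) were lower in every KO embryo, at 205 to 242 FPKM against 314 to 413 FPKM, with 6 of 7 tested lower at an unadjusted p under 0.05. The summed endothelial markers (6 genes) were higher in every KO embryo, at 90.2 to 95.5 FPKM against 84.2 to 88.4 FPKM. Of the 6 genes, 4 were higher without overlap, with Kdr and Pecam1 at an unadjusted p under 0.05. The other 2, Cdh5 (-0.01) and Emcn (0.14), overlapped between genotypes. The summed erythroid markers were lower in every KO embryo (9582 to 12340.0 against 14079 to 18409 FPKM). Of these 4 genes, Hbb-y alone was without overlap. The sums of the neural and epidermal markers overlapped. Within those lists Sox2 (0.48), Nes (0.25) and Tfap2a (0.25) were higher in every KO embryo, at an unadjusted p under 0.05. Each of the 2 lists had 3 positive and 3 negative log2 fold changes, with medians of -0.01 (neural) and -0.09 (epidermal). The negative ones were Tubb3, Dcx and Stmn2 (neural) and Krt5, Krt14 and Krt15 (epidermal). None of the 55 markers in the table was at 0 in any embryo. The part of cell composition in the collagen differences was not tested.

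Collagen chains depend on enzymes and chaperones of the endoplasmic reticulum, on export and on processing outside the cell. Of 76 listed genes of these functions, of collagen binding and of breakdown, 66 were tested and none passed the adjusted threshold. At an unadjusted p under 0.05, 22 were lower and 2 higher, 20 were lower and 1 was higher without overlap, and the median log2 fold change was -0.12. Beside the shares over all genes, 6.19% lower and 5.27% higher by p and 5.98% lower and 5.61% higher without overlap, the lower counts were above the background and the higher counts were not. The median of these genes was thus smaller in size than that of the collagens.

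**Figure D5:**
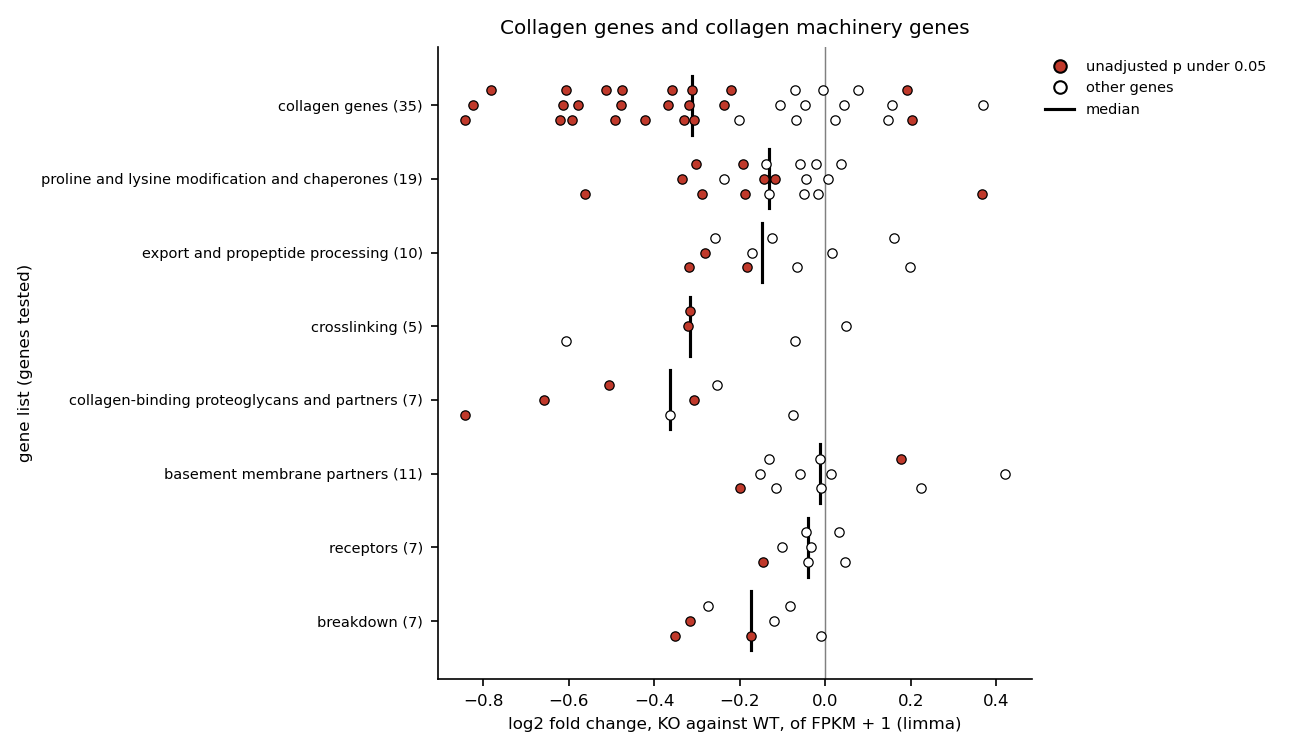
log2 fold change of KO against WT, of FPKM + 1, for the 35 tested collagen genes and the 66 tested genes of collagen modification, export, crosslinking, binding, basement membranes, receptors and breakdown; red points had an unadjusted p under 0.05 and black bars are medians. Medians ran from -0.36 for collagen-binding genes to -0.01 for basement membrane partners.

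Among the genes of modification and folding, 8 of 19 were lower and 1 was higher at an unadjusted p under 0.05. Crtap, a subunit of the prolyl 3-hydroxylase complex, was at 24.9, 26.9 and 24.2 FPKM in KO and 31.4, 31.1, 34.7 and 31.8 FPKM in WT embryos. Its groups were well apart (log2 fold change -0.34 ± 0.06, SE, adjusted p = 0.274 by limma), and its partners P3h1 (-0.30) and Ppib (-0.14) were also lower in every KO embryo. P4hb, the beta subunit of prolyl 4-hydroxylase, the procollagen chaperone Fkbp10, the galactosyltransferase Colgalt1 and the prolyl 3-hydroxylase P3h3 were likewise lower in every KO embryo, with log2 fold changes of -0.19, -0.29, -0.12 and -0.19. The catalytic subunits of prolyl 4-hydroxylase lay apart, with P4ha3 at -0.56 and P4ha1 at 0.37. P4ha1 was at 38.4, 40.5 and 25.4 FPKM in KO and 28.1, 24.2, 25.6 and 27.1 FPKM in WT embryos, so that KOAC10-8 lay within the WT range. Serpinh1, the collagen chaperone HSP47 and the most abundant of these genes, overlapped at -0.13.

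Export and propeptide processing had 3 of 10 tested genes lower, namely the COPII coat subunits Sec23a (-0.18) and Sec24d (-0.32) and the procollagen C-proteinase Bmp1 (-0.28). Mia3, the TANGO1 receptor that loads procollagen, was at 0.02 with overlap. Of the crosslinking enzymes, the lysyl oxidase relatives Loxl1 and Loxl3 were both at -0.32 without overlap. Pxdn, the peroxidasin that crosslinks type IV collagen, was higher in every KO embryo by a small amount (76.9 to 77.6 against 73.0 to 75.6 FPKM, log2 fold change 0.05, unadjusted p = 0.237).

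Proteins that bind collagen fibrils included Fmod, the most negative of the 66 genes. Fmod, the proteoglycan fibromodulin, was at 3.94, 3.92 and 2.96 FPKM in KO and 6.69, 7.15, 9.22 and 6.15 FPKM in WT embryos. Its KO embryos were all below its WT embryos, at 49.4% of the WT mean (log2 fold change -0.84 ± 0.14, SE, adjusted p = 0.274 by limma). Periostin (Postn, -0.66), decorin (Dcn, -0.51) and Sparc (-0.31), all of which bind fibrillar collagen, were lower in every KO embryo too. Fibronectin (Fn1), the most abundant gene of this list, overlapped at -0.08. The basement membrane partners of type IV collagen were split, with the laminin chains Lamb1 at -0.20 and Lamb2 at 0.18 and the heparan sulfate proteoglycan Agrn at -0.06. Of the receptors, the discoidin domain receptor Ddr2 was at -0.15 and the integrin chain Itgb1 at -0.10. Of the breakdown genes, the membrane-bound collagenase Mmp14 was at -0.08, the protease Ctsk at -0.35, and the inhibitors Timp1 and Timp2 at -0.17 and -0.32.

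The classes also differ in the helix their chains encode, in the coding sequences of the GENCODE M21 annotation. The longest unbroken run of glycine-led triplets had a median of 338 triplets in fibrillar genes, with 216 in Col24a1 and 217 in Col27a1. Among basement membrane genes it was 39 to 66, among FACIT genes 32 to 113 and among the others 23 to 87. Genes with short and with long runs were lower in every KO embryo, such as Col14a1 and Col12a1 (32 triplets each) and Col1a1 (338 triplets). The 10 tested fibrillar genes, which have the longest runs, all had negative log2 fold changes. That of Col24a1 was near 0 (-0.01) and turned to 0.16 without KOAC10-5. That of Col11a2 (-0.07) turned to 0.12 without KOAC10-8. The 8 collagens with a positive log2 fold change over all 7 embryos were in classes other than the fibrillar. A link between run length and direction was not tested.

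Start regions were read from RefSeq for 34 of the 43 genes (37 windows of 300 bases, GRCm38.p6), on both strands. The GC box letters GGGCGG were found in 62.2% of the collagen windows and in 35.7% of all 32851 windows. CCAAT was found in 35.1% against 37.4%, and TATAAA in 4 of the 37 windows against 13.6% of all. The upstream bases of the highest type I and type III chains are printed because these genes carry much of the collagen sum, with any of the 3 motifs in capitals and only the bases outside annotated exons shown. They cover chr6:4505370-4505492 for Col1a2 and chr1:45311288-45311537 for Col3a1, both on the plus strand.
Col1a2: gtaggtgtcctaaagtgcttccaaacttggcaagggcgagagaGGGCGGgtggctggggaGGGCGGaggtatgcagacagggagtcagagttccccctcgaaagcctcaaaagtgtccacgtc
Col3a1: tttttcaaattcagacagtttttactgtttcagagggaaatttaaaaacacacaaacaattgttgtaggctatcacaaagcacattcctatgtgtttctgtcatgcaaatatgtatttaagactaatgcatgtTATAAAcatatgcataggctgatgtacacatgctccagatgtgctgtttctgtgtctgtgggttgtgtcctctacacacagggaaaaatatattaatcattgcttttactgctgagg
Starts are those of RefSeq, and the GENCODE gene model of Col1a2 begins further upstream, at 4504814, so that this stretch lies within it. The Col1a2 stretch holds GGGCGG at 205 and 188 bases before the RefSeq start and the Col3a1 stretch holds TATAAA at 117 bases before it, whereas neither GGGCGG nor CCAAT is in that window of Col3a1. Col3a1 lies 24.6 kb from Col5a2 on chromosome 1, on the other strand, and both had negative log2 fold changes (-0.37 and -0.31).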

How the data were processed

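RNA-seq was made from single E11.5 embryos with the TruSeq RNA v2 kit. FPKM values per gene and embryo were deposited by the authors. The submitters' processing notes name Salmon, DESeq2, MultiQC and GRCm38. Versions are not given in the sources used here. The authors' own comparison of KO and WT was also deposited, as mean normalized signal, log2 fold change and its error, and p-value and adjusted p-value per gene, and was not used. All FPKM columns were matched to an embryo by name.

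The 16095 of 25461 genes whose mean reached 1 FPKM were compared on log2(FPKM + 1) with limma 3.58.1 in R 4.3.3 (lmFit, eBayes with trend), without covariates, with Benjamini-Hochberg adjustment and a threshold of 0.05. A fold change on this scale understates that of low genes. Exact permutation tests were two-sided, over 35 divisions of 7 embryos. The fit was tested on simulated data. Relative depth was read from the steps between low FPKM values, and read counts were not used here. P-values measure the spread between single embryos.

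The values in every embryo were given for the 3 highest genes of each class, the 3 largest differences in each direction and all tested genes without overlap. Machinery genes were named if their unadjusted p was under 0.05 or they were the highest of their list. Single marker genes were named after their values were seen. The members and lists were chosen with earlier results of these data known. Of the 76 listed machinery genes 75 were in the table (Mmp13 was not analysed here, and Ctage5 was matched as Mia2). Col10a1 was not analysed here. Helix runs came from coding sequences of GENCODE M21 in place of RefSeq proteins.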

Additional observations from a re-analysis of the deposited data

Results flagged for a closer look

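In the 4 WT embryos, 10 of 70 results looked at had a highest or lowest embryo far from the other 3, by the gap as a share of the range, where chance gives about 1 in 20, or 3.5. Among the collagens, KOAC10-2 was highest for Col4a1 (89.1 against 79.0 FPKM, share 0.878) and for the summed basement membrane collagens (150.4 against 140.3 FPKM, 0.940), and KOAC9-1 was highest for Col6a2 (34.4 against 26.6 FPKM, 0.881). Among ratios, KOAC10-2 was highest for Col5a1 to Col5a2 (0.750 against 0.702, 0.883), KOAC9-1 was lowest for Col6a3 to Col6a1 (0.683 against 0.887, 0.948) and KOAC8-1 was lowest for Col9a3 to Col9a2 (0.774 against 0.882, 0.921). Among machinery genes, KOAC9-1 was highest for Sparc (259 against 206 FPKM, 0.874) and Loxl1 (11.1 against 9.53 FPKM, 0.840), KOAC8-1 was lowest for Colgalt1 (42.2 against 44.5 FPKM, 0.900) and KOAC10-2 was lowest for Ddr2 (23.7 against 26.5 FPKM, 0.843).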

How the results depend on the processing

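No collagen gene had an adjusted p under 0.05 under any alternative, and the smallest adjusted p ran from 0.0637 (Col8a2, without KOAC10-5) to 0.573. The 21 collagens lower at an unadjusted p under 0.05 became 12 without the embryos of low Xist (an alternative chosen after seeing the data), and otherwise numbered 14 (KOAC series as a block) to 22, or 16 to 21 with an embryo left out. Those higher numbered 0 with the KOAC series as a block, 1 with Afp and 1 with Xist as a covariate, 0 without the embryos of low Xist and 0 to 2 with an embryo left out. Of all genes, 3.42% were lower and 2.59% higher by that rule without the embryos of low Xist. With an embryo left out, 4.24% to 8.55% were lower and 3.31% to 7.81% higher. Under the other alternatives, 4.65% (KOAC block) to 6.69% were lower and 4.04% (KOAC block) to 5.7% higher. These shares also stand beside the machinery counts below. The median of the collagens, -0.31, went to -0.20 with no filter, -0.20 without the embryos of low Xist, and -0.36 to -0.23 with an embryo left out. Collagens without overlap numbered 17 to 22 (lower) and 1 to 4 (higher) with an embryo left out, with 4 without KOAC10-5 (chosen after seeing the data). Leaving an embryo out cannot make the genotypes overlap, so these counts could not fall and are no check on the result. Full separation is also easier with fewer embryos. No share of all genes was set beside these counts, so their rise cannot be read. Machinery genes lower numbered 12, with a median of -0.073, without the embryos of low Xist and 15 to 24 with an embryo left out. Those higher numbered 1 (pseudocounts of 0.1 and 0.01, minimum mean of 5 FPKM, KOAC block), 0 (common sum, median-ratio size factors, Afp) and 0 to 3 with an embryo left out. Over all genes, 6 calls became 10 with Afp as a covariate, 10 without the embryos of low Xist and 7 to 12 with an embryo left out (12 without KOAC8-1). Mia3 turned to -0.0079 with Afp and -0.0057 without the embryos of low Xist, and ran from -0.043 (without KOAC10-8) to 0.088 with an embryo left out. Agrn ran from -0.11 to 0.013 (without KOAC10-8), and Mmp14 turned to 0.034 without the embryos of low Xist. The exact permutation p of Col26a1 was 0.0571 without the log. The causes were not tested. No paired analysis was possible because the labels do not pair single embryos: the KOAC numbers are shared by several embryos, and KOAC9 holds a WT embryo alone, so the KOAC series was fitted as a block instead, as given above. Read counts were not used here, so no counting interval was set on the genes under 1 FPKM.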
